A study of Homo sapiens with 2 samples.

Results

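Ubiquitin-conjugating enzymes, the E2s, were examined in a human cell line by setting ribosome profiling beside total RNA sequencing. They were taken as the rows of the deposited table that carry a gene symbol beginning with UBE2, without pseudogenes, which gave 37 of 23608 rows and left out 4 pseudogene rows. Both libraries came from SW13, an established line labelled as human adrenal adenocarcinoma, and both carried the same plasmids, Add2-Mhrt779 and Add2-Hotair, for the murine non-coding RNAs Mhrt779 and Hotair. The ribosome profiling library holds RNA fragments that ribosomes cover, and the RNA sequencing library holds total RNA, each from cells harvested 48 hours after transfection. There was 1 library per assay and no library of untransfected cells was analysed here, so no value has a replicate error and no p-value was computed. All 10 adrenocortical marker genes examined, NR5A1, STAR and 8 others, were listed at 0 in both libraries.

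E2 enzymes stand in the middle of a cascade. An E1 enzyme activates ubiquitin or a ubiquitin-like protein, the E2 takes it over on an active-site cysteine, and an E3 ligase brings the charged E2 to a substrate. The E2 largely sets which kind of chain is built, and several E2s serve ubiquitin-like proteins such as SUMO, NEDD8 and ISG15 instead. Dividing cells use a dedicated E2 pair with the anaphase-promoting complex (APC/C), the ligase that ends mitosis.

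The active site is shown for the E2s on which the results turn, as 11 codons from the conserved histidine, proline and asparagine to the cysteine that carries ubiquitin. Sequences are coding strands from GENCODE 29 transcripts (GRCh38), 5′ to 3′, with the cysteine codon in capitals. UBE2A and UBE2B are the human homologues of yeast Rad6, UBE2C and UBE2S work with the APC/C, UBE2T and UBE2R2 had the highest ratios of ribosome profiling to RNA sequencing among the tested E2s, and UBE2M has a processed copy, UBE2MP1.
UBE2A: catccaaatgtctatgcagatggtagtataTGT
UBE2B: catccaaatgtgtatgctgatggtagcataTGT
UBE2C: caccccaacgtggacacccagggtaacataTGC
UBE2S: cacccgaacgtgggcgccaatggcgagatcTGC
UBE2T: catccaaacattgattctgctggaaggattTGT
UBE2R2: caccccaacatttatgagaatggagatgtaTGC
UBE2M: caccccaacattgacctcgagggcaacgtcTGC
UBE2MP1: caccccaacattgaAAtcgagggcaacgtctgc

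In the UBE2MP1 line the capitals mark the bases that differ from UBE2M. The stretches of UBE2A and UBE2B end at codon 88 in both genes and differ at 3 of 33 bases, and those of UBE2C and UBE2S differ at 9 of 33. In GRCh38 the UBE2C stretch is at chr20:45815634-45815666 on the plus strand. The minus-strand stretches are at chr19:55404345-55404377 for UBE2S, chr1:202333477-202333509 for UBE2T, chr19:58556701-58556733 for UBE2M and chr16:35169910-35169942 for UBE2MP1. Those of UBE2A on chromosome X, UBE2B on chromosome 5 and UBE2R2 on chromosome 9 cross an exon junction.

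Values are the authors' FPKM (fragment numbers scaled for transcript length and library size). The coding part made up 63.5% of the UBE2C transcript, 26.3% for UBE2S and 6.44% for UBE2W. Levels were not adjusted here for this or for sequence shared with other genes, so ranks between genes are ranks of FPKM only. Of the 37 E2 rows, 31 were above 0 in both libraries, 3 were above 0 in RNA sequencing only and 3 were listed at 0 in both. The E2 rows summed to 386 FPKM in ribosome profiling and 406 FPKM in RNA sequencing, while all rows summed to 6457389 FPKM in ribosome profiling and 1846987 FPKM in RNA sequencing. UBE2C and UBE2S had the highest 2 values in each library and together made up 31.5% of the sum in ribosome profiling and 30.9% in RNA sequencing. Below them the order differed between the assays. UBE2T, UBE2V2 and UBE2R2 came next in ribosome profiling, whereas UBE2B, UBE2M and UBE2V2 came next in RNA sequencing.

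**Figure D1:**
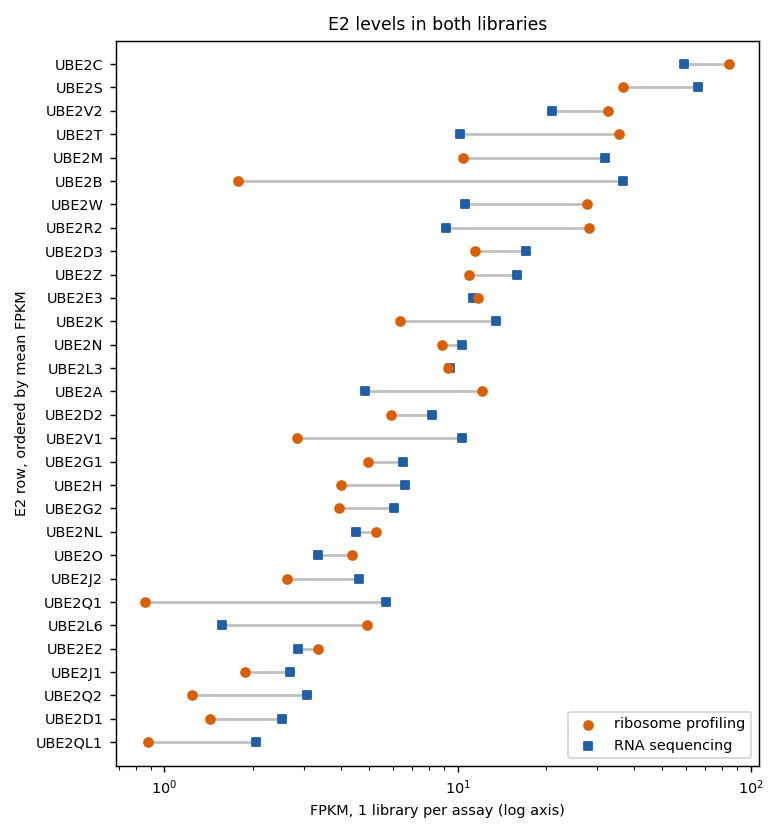
FPKM of 30 of the 31 E2 rows above 0 in both libraries, on a log axis, with circles for ribosome profiling, squares for RNA sequencing and a line joining the 2 values of a gene. UBE2B has the longest line, with 1.78 FPKM in ribosome profiling and 36.8 FPKM in RNA sequencing, and UBE2C and UBE2S lie at the top in both.

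Each row was then compared by its log2 ratio, taken after adding a pseudocount of 1 to the FPKM of ribosome profiling and of RNA sequencing, less the median ratio of the tested genes in the whole table. Tested genes have a mean of at least 10 FPKM over both libraries, which 2734 rows passed. The median before centring was 0.39, so folds below are relative to a median gene whose ribosome profiling value was 1.31-fold its RNA sequencing value. Of the 37 E2 rows 11 were tested, with UBE2E3 just inside the filter at a mean of 11.5 FPKM and UBE2K just outside at 9.94 FPKM. Because the filter is on the mean, UBE2B passed through RNA sequencing alone and UBE2R2 through ribosome profiling alone. UBE2B had 1.78 FPKM in ribosome profiling, and UBE2R2 had 9.12 FPKM in RNA sequencing. A row that passes this way counts toward the direction of its higher assay, so the counts are descriptions only. Among the 11, 2 lay above the median gene by 2-fold or more (13.1% of all tested rows were), 3 were at least 2-fold below (19.7% of all tested rows) and 6 lay between. Their median log2 ratio was -0.33, against 0 for all tested rows. Without centring the split was 3 above and 2 below, against 23.6% and 14.2% of all tested rows.

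The authors' deposited table gives a log2 ratio and a test statistic for each row, and dividing one by the other gives the standard error (SE) that the authors' model assigned. That SE does not contain the variation of separate cultures. Over the 22 E2 rows with the status OK, the table's mark for rows that were tested, it ranged from 0.61 to 1.33 on the log2 scale, with a median of 0.88. UBE2B was the 1 E2 row called significant in the authors' deposited table, where 1.3% of all status OK rows were called. An unadjusted p under 0.05 stood beside 2 of the 22 in the authors' deposited table, UBE2B and UBE2Q1, against 14.2% of all status OK rows. The other 21 had q-values of at least 0.323 in the authors' deposited table.

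**Figure D2:**
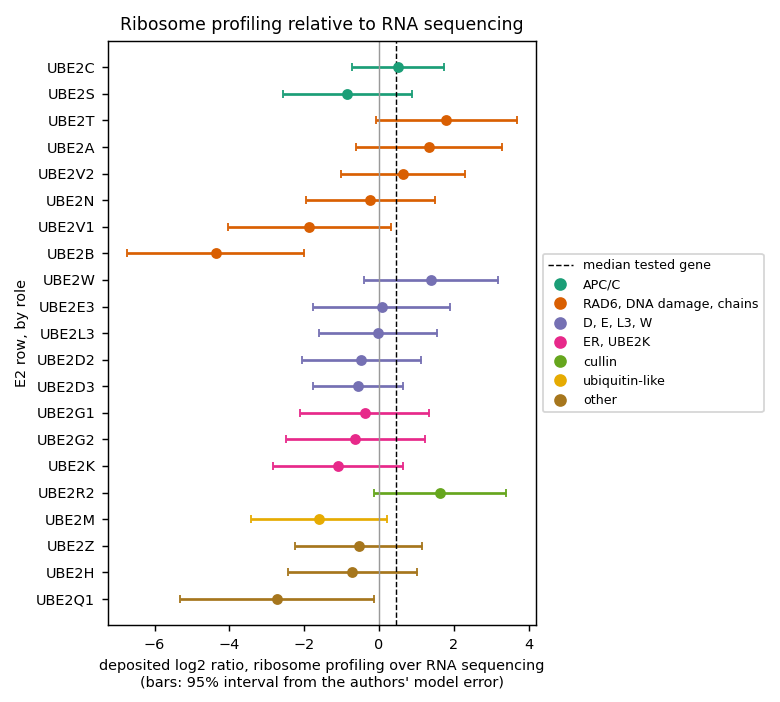
Deposited log2 ratio (ribosome profiling over total RNA) for 21 of the 22 E2 rows with the status OK, coloured by role, with 95% intervals from the authors' model error. The interval of UBE2B, from -6.73 to -2.01, lies farthest from 0, that of UBE2Q1 ends at -0.12, and the other 19 hold 0. The dashed line is the median tested gene at 0.44. The intervals of UBE2M, ending at 0.22, and UBE2V1, ending at 0.31, hold 0 but also lie below that line.

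UBE2B lay far below the median gene, while its close relative UBE2A lay above it. These RAD6 enzymes modify histone H2B with the ligases RNF20 and RNF40 and the replication clamp PCNA with RAD18. UBE2B had 1.78 FPKM in ribosome profiling and 36.8 FPKM in RNA sequencing, 17.8-fold below the median gene, and was the 1 tested E2 at least 4-fold below, as 9.8% of all tested rows were. It ranked 27 among the E2 rows in ribosome profiling and 3 in RNA sequencing. UBE2A had 12.1 FPKM in ribosome profiling and 4.83 FPKM in RNA sequencing, with a mean of 8.47 FPKM that did not pass the filter. It ranked 7 in ribosome profiling and 22 in RNA sequencing. The authors' deposited table lists UBE2B at a log2 ratio of -4.37 (SE 1.20, q = 0.0290) and UBE2A at 1.33 (SE 0.99, q = 0.538).

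Subtracting the log2 ratios in the authors' deposited table, UBE2A minus UBE2B came to 5.69 (SE 1.56), and its 95% interval ran from 2.63 to 8.76, taking both errors as independent. Widened for all 9 pairs of related E2s compared, the interval ran from 1.36 to 10.03. The pairs were chosen with earlier results of these data known, which the widening does not cover. The coding sequences of both are 459 bases long and matched at 80.8% of 454 aligned bases. Their longest identical stretch was 25 bases, and no 30-base word of either coding sequence was found in a GENCODE transcript of another gene. Over the whole transcript the share was 1.25% for UBE2B and 0% for UBE2A. UBE2B lies on chromosome 5 from 133706870 to 133727799 and UBE2A on chromosome X from 118708499 to 118718379 in hg19.

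The APC/C enzymes had the highest FPKM among the E2s, and the interval of the difference between their ratios held 0. UBE2C, which starts chains on mitotic substrates, had 84.6 FPKM in ribosome profiling and 59.3 FPKM in RNA sequencing, 1.08-fold above the median gene. UBE2S, which extends those chains, had 36.7 FPKM in ribosome profiling and 66.1 FPKM in RNA sequencing, 2.33-fold below. It stayed below the median gene but inside the 2-fold limit under 4 of 12 other settings, at a log2 ratio of -0.83 without centring and -0.55 without a filter. UBE2C was the higher of the pair in ribosome profiling and UBE2S in RNA sequencing. UBE2C minus UBE2S was 1.36 on the log2 scale of the authors' deposited table (SE 1.08), and the 95% interval ran from -0.76 to 3.48. Of the 30-base words in the UBE2S coding sequence 78.6% were also in transcripts of other genes, chiefly UBE2SP1 and UBE2SP2, against 10.2% for UBE2C.

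UBE2T and UBE2R2 had the highest ratios among the 11 tested E2s. UBE2T, the E2 of the Fanconi anaemia pathway that modifies FANCD2 with the ligase FANCL, had 35.5 FPKM in ribosome profiling and 10.2 FPKM in RNA sequencing, 2.49-fold above the median gene. UBE2R2, a partner of cullin ligases, had 28.1 FPKM in ribosome profiling and 9.12 FPKM in RNA sequencing, 2.19-fold above. Neither coding sequence shared a 30-base word with another gene. The authors' deposited table lists UBE2T at a log2 ratio of 1.80 (SE 0.96, q = 0.377) and UBE2R2 at 1.62 (SE 0.90, q = 0.388), neither of them called. With a pseudocount of 5 the log2 ratio of UBE2R2 was 0.90, under the 2-fold limit.

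CDC34, the closest relative of UBE2R2, carries no UBE2 symbol and is given for comparison. It had 14.6 FPKM in ribosome profiling and 22.3 FPKM in RNA sequencing, 1.95-fold below the median gene. UBE2R2 minus CDC34 was 2.23 on the log2 scale of the authors' deposited table, with a 95% interval from -0.24 to 4.71 that holds 0.

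Enzymes that build chains with a catalytically inactive partner were of mixed direction. UBE2N, which with UBE2V1 or UBE2V2 makes chains used in signalling and DNA repair, had 8.83 FPKM in ribosome profiling and 10.4 FPKM in RNA sequencing. UBE2V2 had 32.7 FPKM in ribosome profiling and 21.0 FPKM in RNA sequencing, 1.17-fold above the median gene. UBE2V1 had 2.84 FPKM in ribosome profiling and 10.4 FPKM in RNA sequencing. The UBE2V1 row shares its locus with the readthrough gene TMEM189-UBE2V1, and all of its coding 30-base words were found there or in other genes. The readthrough row had 4.98 FPKM in ribosome profiling and 9.47 FPKM in RNA sequencing, and both rows summed to 7.81 FPKM in ribosome profiling and 19.8 FPKM in RNA sequencing. UBE2V1 minus UBE2V2 was -2.51 in log2 ratio in the authors' deposited table and had a 95% interval from -5.25 to 0.23. UBE2N minus UBE2V1 and UBE2N minus UBE2V2 were 1.64 and -0.87 in the authors' deposited table, with intervals that also hold 0.

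**Figure D3:**
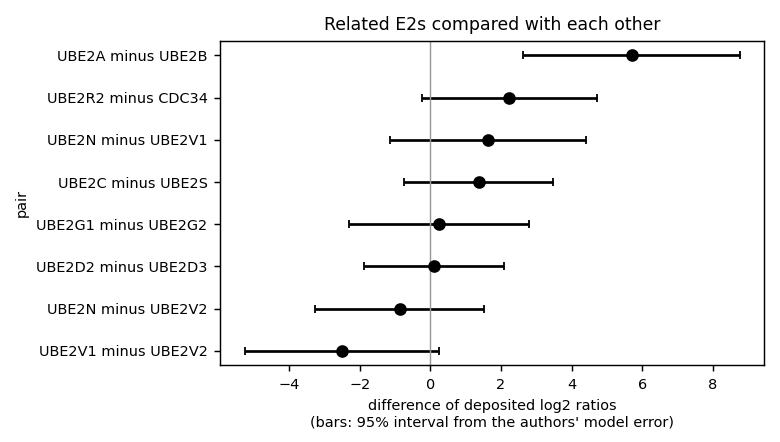
Difference of the deposited log2 ratios within 8 of the 9 pairs of related E2s, with 95% intervals from the authors' model errors. The interval of UBE2A minus UBE2B, from 2.63 to 8.76, lies above 0 and the other 7 hold 0.

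Among the UBE2 rows for ubiquitin-like proteins UBE2M had the highest level in both assays. UBE2M, which attaches NEDD8 to cullins, had 10.5 FPKM in ribosome profiling and 31.9 FPKM in RNA sequencing, 3.75-fold below the median gene. The authors' deposited table lists it, uncalled, at a log2 ratio of -1.61 (SE 0.93, q = 0.415). Its copy UBE2MP1 matches UBE2M at 97.1% of 550 aligned bases, with an identical stretch of 130 bases, and reads may have been divided between them. The UBE2MP1 row had 12.5 FPKM in ribosome profiling and 32.1 FPKM in RNA sequencing. Summed, the rows had 23.0 FPKM in ribosome profiling and 64.0 FPKM in RNA sequencing, a log2 ratio of -1.83 relative to the median gene, against -1.91 for UBE2M alone.

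UBE2F, the other NEDD8 enzyme, shares a row with the readthrough gene UBE2F-SCLY that was listed at 0 in both libraries, and the readthrough's own row was listed at 0 in ribosome profiling and had 0.766 FPKM in RNA sequencing. UBE2L6, which carries ISG15 and is induced by interferon, had 4.90 FPKM in ribosome profiling and 1.57 FPKM in RNA sequencing. ISG15 itself had 384 FPKM in ribosome profiling and 47.8 FPKM in RNA sequencing.

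The broadly acting E2s lay near or below the median gene, except UBE2W. UBE2W, which attaches ubiquitin to the amino terminus of proteins, had 27.7 FPKM in ribosome profiling and 10.6 FPKM in RNA sequencing, 1.89-fold above the median gene. UBE2D3, which works with many ligases, had 11.5 FPKM in ribosome profiling and 17.1 FPKM in RNA sequencing, 1.90-fold below. UBE2E3 had 11.8 FPKM in ribosome profiling and 11.3 FPKM in RNA sequencing, 1.26-fold below. These rows lay inside the 2-fold limits, although UBE2W passed the upper limit under 5 of 11 other settings and UBE2D3 the lower one with the authors' ratio. Sharing of coding 30-base words with other genes was 86.8% for UBE2W, mostly with AC022826.2, 58.6% for UBE2D3, mostly with UBE2D3P1, and 43.7% for UBE2E3.

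UBE2D2, whose coding sequence matches that of UBE2D3 at 85.3% of 421 aligned bases, had 5.91 FPKM in ribosome profiling and 8.21 FPKM in RNA sequencing. UBE2D2 minus UBE2D3 was 0.099 in the authors' deposited table and had a 95% interval from -1.89 to 2.09. UBE2L3, which works with ligases that pass ubiquitin through their own cysteine, had 9.26 FPKM in ribosome profiling and 9.43 FPKM in RNA sequencing. UBE2D1 had 1.43 FPKM in ribosome profiling and 2.51 FPKM in RNA sequencing, and UBE2E2 had 3.33 FPKM in ribosome profiling and 2.85 FPKM in RNA sequencing. UBE2D4 and UBE2E1 were listed at 0 in ribosome profiling and had 0.587 FPKM and 0.675 FPKM in RNA sequencing.

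Enzymes of protein degradation at the endoplasmic reticulum were all under the filter. UBE2G2, a partner of membrane ligases, had 3.93 FPKM in ribosome profiling and 6.09 FPKM in RNA sequencing. The membrane-anchored UBE2J1 had 1.88 FPKM in ribosome profiling and 2.68 FPKM in RNA sequencing, and UBE2J2 had 2.63 FPKM in ribosome profiling and 4.62 FPKM in RNA sequencing. UBE2G1, the relative of UBE2G2, had 4.97 FPKM in ribosome profiling and 6.51 FPKM in RNA sequencing. UBE2G1 minus UBE2G2 was 0.24 in the authors' deposited table and had a 95% interval from -2.30 to 2.78. UBE2K, which can build chains without a ligase, had 6.35 FPKM in ribosome profiling and 13.5 FPKM in RNA sequencing. All 5 had more FPKM in RNA sequencing than in ribosome profiling. All 5 also lay below the median tested gene, as did 77.4% of all rows with a mean from 1 to 10 FPKM.

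UBE2Z, which is charged by the E1 enzyme UBA6, was the other tested E2, with 10.9 FPKM in ribosome profiling and 15.9 FPKM in RNA sequencing, 1.86-fold below the median gene. UBE2Q1, a large and less studied E2, had 0.859 FPKM in ribosome profiling and 5.69 FPKM in RNA sequencing. The authors' deposited table lists it, uncalled, at a log2 ratio of -2.73 (SE 1.33, q = 0.323). Its relatives UBE2Q2 and UBE2QL1 had 1.25 FPKM and 0.876 FPKM in ribosome profiling, against 3.06 FPKM and 2.06 FPKM in RNA sequencing. UBE2H, which acts with the CTLH ligase complex, had 4.01 FPKM in ribosome profiling and 6.60 FPKM in RNA sequencing, and UBE2O, which joins E2 and E3 functions in 1 protein, had 4.37 FPKM in ribosome profiling and 3.34 FPKM in RNA sequencing. UBE2U and UBE2DNL were listed at 0 in both libraries.

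Of the 20 E2 rows with a mean from 1 to 10 FPKM, 17 lay below the median tested gene, as did 77.4% of all rows in that range, and 3, UBE2A and UBE2L6 among them, lay above. None of the 20 lay above it by 2-fold or more (3.81% of the 8119 rows in that range were), and 6 were at least 2-fold below (38.1% of those rows). Their median log2 ratio was -0.77, against -0.71 for all rows in that range. These counts and this median lay near those of all rows of like level.

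The depth behind these values could be read in part from the ratios themselves. Of the 10894 rows above 0 in both libraries, 397 had the same ratio of ribosome profiling to RNA sequencing FPKM, 1.56, and 60.0% of the 6350 such rows under 5 FPKM had 1.56 times a ratio of small whole numbers, as did 37.9% of the 4544 rows of at least 5 FPKM. This is the pattern that whole fragments give when 1 fragment in ribosome profiling is worth 1.56 times as much FPKM as 1 fragment in RNA sequencing. On that reading, which for UBE2B, UBE2T, UBE2S and UBE2M rests on the less complete class of higher rows, UBE2B stood at 5 fragments in ribosome profiling to 161 in RNA sequencing, UBE2T at 29 to 13, UBE2S at 21 to 59, UBE2M at 4 to 19 and UBE2Q1 at 3 to 31, or at a common multiple of these. UBE2V2 stood at equal numbers. The rows of UBE2E2 and UBE2NL stood at 3 to 4 and had the same standard error, 1.29, in the authors' deposited table. UBE2NL, an X-linked copy of UBE2N, had 5.28 FPKM in ribosome profiling and 4.51 FPKM in RNA sequencing, and matches UBE2N at 92.2% of 1192 aligned positions. The UBE2N and UBE2NL rows summed to 14.1 FPKM in ribosome profiling and 14.9 FPKM in RNA sequencing.

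**Figure D4:**
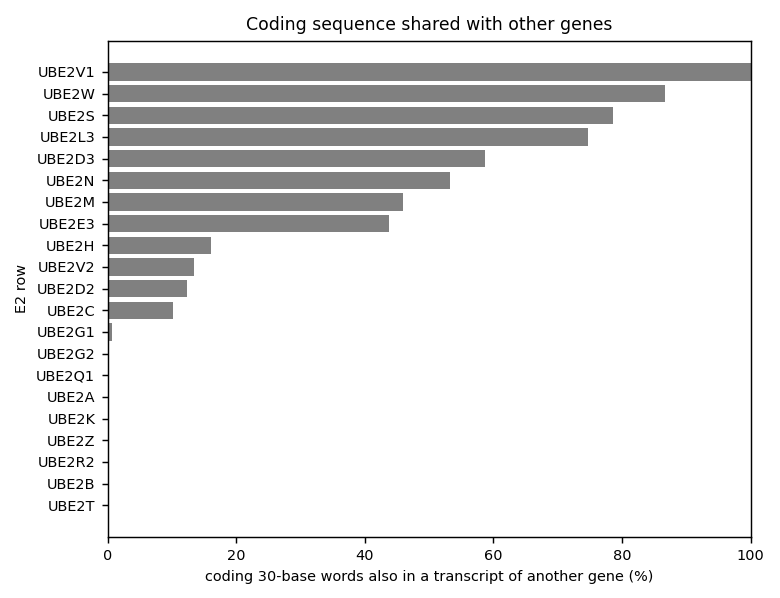
Percentage of the 30-base words in each E2 coding sequence that also occur in a GENCODE 29 transcript of another gene, for 21 of the 22 E2 rows with the status OK. UBE2V1 is at 100%, 8 rows lie above 40%, and 8 rows, UBE2B, UBE2A, UBE2T and UBE2R2 among them, are at 0%.

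Shared coding sequence divided the E2 rows into those with coding words of their own and those whose reads may have been divided among genes. Of the 22 rows with the status OK, 9 had no coding 30-base word in common with another gene, 5 lay between and 8 had more than 40%. Of the 11 tested rows, 4 had none, namely UBE2B, UBE2T, UBE2R2 and UBE2Z, and 5 had more than 40%. Of the 5 tested rows past a 2-fold limit, UBE2T, UBE2R2 and UBE2B were in the group with none, and UBE2S at 78.6% and UBE2M at 45.9% were in the group over 40%. How the authors' counting treated reads that match several places is not stated in any source used here.

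Transcript structure was compared with the ratio as a description across genes, which are not independent replicates and share both libraries. The coding part made up from 6.44% to 65.4% of the transcript in the 11 tested E2s, with a median of 26.3%, against a median of 53.9% over 2245 tested rows with a coding transcript. The ratio showed little relation to that share, with Pearson's r of 0.18 and Spearman's rho of -0.027 over the 11, and 0.092 and 0.087 over the 2245. Of 6 transcript features compared, the length of the leader before the start codon had the r farthest from 0 over the 11, at -0.60 with rho of -0.60, and it had -0.30 and -0.33 over 30 E2 rows of at least 1 FPKM above 0 in both libraries, and -0.11 and -0.077 over the 2245. Without UBE2B the r was -0.65 and the rho -0.52 over 10 genes. UBE2D3 had 614 bases there, UBE2M 579 bases and UBE2B 417 bases, against 136 bases in UBE2T and 191 bases in UBE2R2. UBE2S with 188 bases and UBE2Z with 135 bases lay below the median gene with short leaders, and the leader of the UBE2W transcript used is annotated with 1 base. GC content had r of -0.27 and rho of -0.37 over the 11, and -0.71 and -0.65 without UBE2B. Over the 30 E2 rows GC content had only -0.056 and -0.052. Over the 2245 it had -0.15 and -0.21, farther from 0 than the values of the leader there.

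The rest of the cascade was compared on the same scale. All 4 tested E1 genes of 10 listed lay inside the 2-fold limits, with a median log2 ratio of 0.20. UBA1, the main ubiquitin E1, had 49.7 FPKM in ribosome profiling and 28.3 FPKM in RNA sequencing. The SUMO E1 subunits UBA2 and SAE1 had 40.4 FPKM and 22.3 FPKM in ribosome profiling, against 23.6 FPKM and 16.2 FPKM in RNA sequencing. NAE1, a subunit of the NEDD8 E1, had 13.8 FPKM in ribosome profiling and 11.7 FPKM in RNA sequencing.

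The listed genes of ubiquitin and its relatives summed to more FPKM than the E2s, with 2645 in ribosome profiling and 1701 in RNA sequencing. Of 13 listed genes 10 were tested, and their median was -0.20. ISG15 was past the upper 2-fold limit (13.1% of all tested rows were), SUMO3 past the lower one (19.7%) and 8 lay between. The ubiquitin gene UBB had 1220 FPKM in ribosome profiling and 734 FPKM in RNA sequencing. SUMO3 had 6.47 FPKM in ribosome profiling and 19.7 FPKM in RNA sequencing, 3.63-fold below. Neither ISG15, at 3.01 (log2, SE 0.92, q = 0.0674), nor SUMO3, at -1.61 (log2, SE 0.96, q = 0.431), is called in the authors' deposited table.

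Partner ligases were mostly under the filter. All 4 tested APC/C genes of 16 listed lay inside the 2-fold limits, with a median of 0.11. Of all tested rows, 13.1% were past the upper limit and 19.7% past the lower one. The APC/C activator CDC20 had 50.5 FPKM in ribosome profiling and lay 1.31-fold above the median gene. The subunits ANAPC11, ANAPC13 and ANAPC5 had 23.7, 15.9 and 10.4 FPKM in ribosome profiling, against 15.8, 11.5 and 13.3 FPKM in RNA sequencing. Of 19 cullin ligase genes 5 were tested, with a median of 0.38. RBX1 alone was at least 2-fold above (13.1% of all tested rows were) and none 2-fold below (19.7%). RBX1 lay inside the limit at a log2 ratio of 0.91 with a pseudocount of 5 and 0.85 with a filter of 30 FPKM. RBX1, the subunit that binds the charged E2, had 47.9 FPKM in ribosome profiling and 17.3 FPKM in RNA sequencing. The adaptor genes TCEB2, SKP1 and TCEB1 had 97.6, 34.4 and 17.9 FPKM in ribosome profiling, against 56.9, 12.6 and 11.2 FPKM in RNA sequencing.

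Of 40 other partner ligases 4 were tested, with a median of -0.19. ARIH1, a partner of UBE2L3, had 191 FPKM in ribosome profiling and 17.2 FPKM in RNA sequencing, 8.05-fold above the median gene. RNF4, which targets SUMO-modified proteins, had 4.08 FPKM in ribosome profiling and 18.1 FPKM in RNA sequencing, 4.92-fold below. HLTF and HUWE1 lay between, with 24.9 FPKM and 11.1 FPKM in ribosome profiling, against 13.5 FPKM and 15.3 FPKM in RNA sequencing. The authors' deposited table calls neither ARIH1, at 3.47 (log2, SE 1.12, q = 0.102), nor RNF4, at -2.15 (log2, SE 0.97, q = 0.271).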

How the data were processed

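Per the labels' protocols, libraries were read from both ends at 50 nt. The deposited table gives 1 FPKM value per library and gene row, computed by the authors. It also gives the authors' log2 ratio and test statistic, here treated as scores because rows listed at 0 carry a placeholder, with p-values and q-values deposited by the authors. Tools listed without a role in the submitters' processing notes are bedtools 2.16.1, SAMtools 0.1.18, TopHat2 2.0.8b and Bowtie2 2.0.0.6, beside the builds hg19 and mm10. The program that made the table and its handling of reads with several matches are given in no source used here. The deposited statistic had the opposite sign to the ratio in 100% of status OK rows with a finite ratio other than 0, so its size alone was used.

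Ratios were computed with a pseudocount of 1 FPKM, rows of status FAIL or HIDATA were left out, and a fold of 2 was counted as a difference, with no test, because there is 1 library per assay. Ratios of whole numbers were accepted within 1.5e-05 of the value where the product of both numbers was at most 1500. GENCODE 29 transcripts were matched by symbol or older symbol to 33 of 37 E2 rows and to 93.1% of 2412 tested rows outside small RNA names, taking the principal coding transcript. Words of 30 bases were compared on the transcript strand. Scripts used Python 3.11.15, numpy 2.4.6, pandas 2.3.3, scipy 1.17.1, Biopython 1.88 and matplotlib 3.10.9, and were tested on simulated data.

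The E2 rows, gene lists, pairs and naming rule (every tested E2, and in each list the 3 tested genes of highest mean and those of highest and lowest ratio) were chosen with earlier results of these data known. Of 15 pairs of related E2s listed, 6 were not compared because a row lacked the status OK or shared another gene's row. Alternatives were other pseudocounts, filters, centrings, row sets and the authors' ratio. Protein sequences were not used here. Some genes of the family and lists are counted but not reported here by name.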

Additional observations from a re-analysis of the deposited data

How the results depend on the processing

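No paired analysis was possible because each assay has 1 library, and no replicate could be left out. Results were recomputed over 10 planned settings and 2 added after seeing the data. The number of E2 rows at least 2-fold above the median gene was 2 of 11 as reported. It was 1 of 11 with a pseudocount of 5 (10.7% of all rows) and 3 of 11 without centring (23.6%). It was 5 of 31 with the mean filter at 1 FPKM (15.5%) and 5 of 34 without a filter (16.1%). With the filter at 30 FPKM it was 0 of 2 (15.6%), and with an added filter of 5 FPKM 3 of 21 (13.1%). With an added filter of 10 FPKM in RNA sequencing it was 2 of 13 (13.5%), without UBE2R2 but with UBE2W at a log2 ratio of 1.28. The number at least 2-fold below was 3 of 11 as reported and 2 of 11 without centring (14.2% of all rows). It was 1 of 2 with the filter of 30 FPKM (22.3%) and 5 of 21 with the added filter of 5 FPKM (20.2%). It was 4 of 31 with the filter of 1 FPKM (19.6%) and 4 of 34 without a filter (15.0%). With the authors' ratio it was 4 of 11 (17.6%), and with an added filter of 10 FPKM in RNA sequencing 4 of 13 (24.6%). The median log2 ratio of the tested E2 rows was -0.33 as reported and 0.059 without centring, and ranged from -0.73 to -0.17 under the others. For the 5 tested E2 rows past a 2-fold limit, 0 of 55 recomputed ratios changed sign. That count says little, because these rows were picked for lying far from 0, and changed filters and centrings shift all rows alike. UBE2S fell inside the limit under 4 settings and UBE2R2 under 1. UBE2R2 was also not tested with the added filter of 10 FPKM in RNA sequencing. Of the other 6 tested E2 rows, UBE2E3 changed sign under 4 settings, up to 0.34, and UBE2C under 1, at -0.060. Over the 122 recomputed ratios of all 11 rows, 2 moved by more than the authors' model error, UBE2C at 0.79 and UBE2D3 at -0.25 with no filter. The common multiple of the fragment numbers is unknown, so no counting interval is given.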
